A study of Mus musculus with 12 samples.

Results

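The transcripts described here are those of 10 genes of de novo lipogenesis and fatty acid desaturation, measured by RNA-seq in mouse liver. They were chosen by name, for their place in the pathway, out of 47729 genes in the counts, and all 10 passed the filter on low counts. They are the desaturases Scd1 and Scd2, the fatty acid synthase Fasn, the acetyl-CoA carboxylases Acaca and Acacb, the ATP citrate lyase Acly, the elongase Elovl6, the malic enzyme Me1 and the regulators Srebf1 and Thrsp. Livers came from 12 C57BL/6 mice in 3 groups of 4. Naive mice were wild type and received vehicle. STAM-vehicle mice were the STAM model of non-alcoholic steatohepatitis (NASH) and received vehicle. I-BET151 mice were STAM mice given 10 mg/kg of I-BET151, a small molecule that blocks the bromodomains of the BET proteins, once a day from week 6 to week 9 of age. STAM mice are males that receive streptozotocin at 2 days of age, which damages the insulin-producing islets, and a high-fat diet from week 4. The study describes the dose of streptozotocin as meant to impair insulin secretion in part. Naive and STAM mice therefore differ in both streptozotocin and diet, and the parts of the 2 in any difference between them cannot be told apart.

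De novo lipogenesis turns surplus carbohydrate into fatty acids. Citrate leaves the mitochondrion and Acly splits it to acetyl-CoA, the carboxylases make malonyl-CoA from it, and Fasn joins these units into palmitate with NADPH that comes in part from Me1. Elovl6 lengthens palmitate to stearate, and the stearoyl-CoA desaturases place a double bond in these chains to give palmitoleate and oleate. In liver the pathway is known to be driven by insulin through SREBP-1c, a product of Srebf1, and by sugar through ChREBP.

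The total count per mouse ran from 34711229 to 53365596, and the 10 genes took 0.223 to 0.269% of all counts in naive, 0.0910 to 0.129% in STAM-vehicle and 0.0516 to 0.142% in I-BET151 livers. Values are CPM, the usual depth-scaled counts, here also scaled by the TMM factor, a size factor that assumes most genes to be alike between libraries. The library of I-BET151 mouse 3 stood apart, with a TMM factor of 1.61 against 0.770 to 1.11 in the other 11 and 2.71% of its counts on mitochondrial genes against 4.51 to 7.30%. The summed level of 9 hepatocyte markers, all with counts in all 12 livers, was 116278 to 136766 CPM in naive and 64825 to 90356 CPM in STAM-vehicle livers. In I-BET151 livers it reached 115653 CPM and was lowest, at 24981 CPM, in mouse 3, so that every naive liver was above every STAM liver. Alb was the largest part of this sum in every liver. Taken singly, Alb, Ttr, Apoa1 and Apoa2 were lower in all STAM-vehicle than in all naive livers, while Ahsg, Fgb, Tat, Cps1 and Hnf4a overlapped. None of the 9 markers passed the threshold in any of the comparisons below. The sum of 4 nuclear-retained RNAs was 824 to 1236 CPM in naive and 1341 to 2121 CPM in STAM-vehicle livers, with no overlap, and 1143 to 4801 CPM in I-BET151 livers, the highest in mouse 3. Lipogenic genes are also high in fat tissue, and 5 adipocyte markers together gave only 1.15 to 1.28 CPM in naive, 1.49 to 2.12 in STAM-vehicle and 0.753 to 4.57 in I-BET151 livers, with no count of Lep in any liver. Kupffer cell and macrophage markers summed to 159 to 229 CPM in naive, 269 to 513 in STAM-vehicle and 199 to 458 in I-BET151 livers. The sum of 6 T cell markers was 1.64 to 4.64 CPM in naive, 4.72 to 7.09 in STAM-vehicle and 1.79 to 2.56 in I-BET151 livers. That of 4 neutrophil markers was 0.374 to 0.715, 1.27 to 5.30 and 0.538 to 3.86 CPM. For macrophage, T cell and neutrophil sums alike, every STAM-vehicle liver was above every naive one. For T cell markers every STAM-vehicle liver was also above every I-BET151 liver. Endothelial, stellate cell and cholangiocyte markers overlapped between all groups. The part of these markers in the results below was not tested. Whole liver was sequenced, so fewer cells of a type and less RNA per cell cannot be told apart.

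In naive livers Scd1 stood far above the other 9 genes. Per kilobase of exon, its level was 406 ± 48.8 CPM (SD, n = 4), followed by Me1 at 40.5 ± 5.18, Acly at 25.7 ± 1.78 and Fasn at 18.2 ± 0.748, and no neighbours in this order overlapped. Thrsp at 13.2 ± 3.16, Acacb at 10.7 ± 2.30, Srebf1 at 8.17 ± 1.78 and Elovl6 at 6.66 ± 1.66 CPM per kilobase formed a run in which neighbours overlapped. Acaca at 3.95 ± 0.491 and Scd2 at 1.09 ± 0.172 CPM per kilobase came last. In STAM-vehicle livers the first 5 places went to Thrsp, Me1, Scd1, Acly and Fasn, between 44.7 ± 18.2 and 22.4 ± 6.03 CPM per kilobase, and neighbours among them overlapped. Scd1 fell to sixth place in I-BET151 livers, at 10.9 ± 7.81 CPM per kilobase, in a run of overlapping genes from Me1 to Acacb. The exon lengths are the union of all annotated transcripts, which lowers the per-kilobase level of genes with many exons in use by few transcripts.

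**Figure D1:**
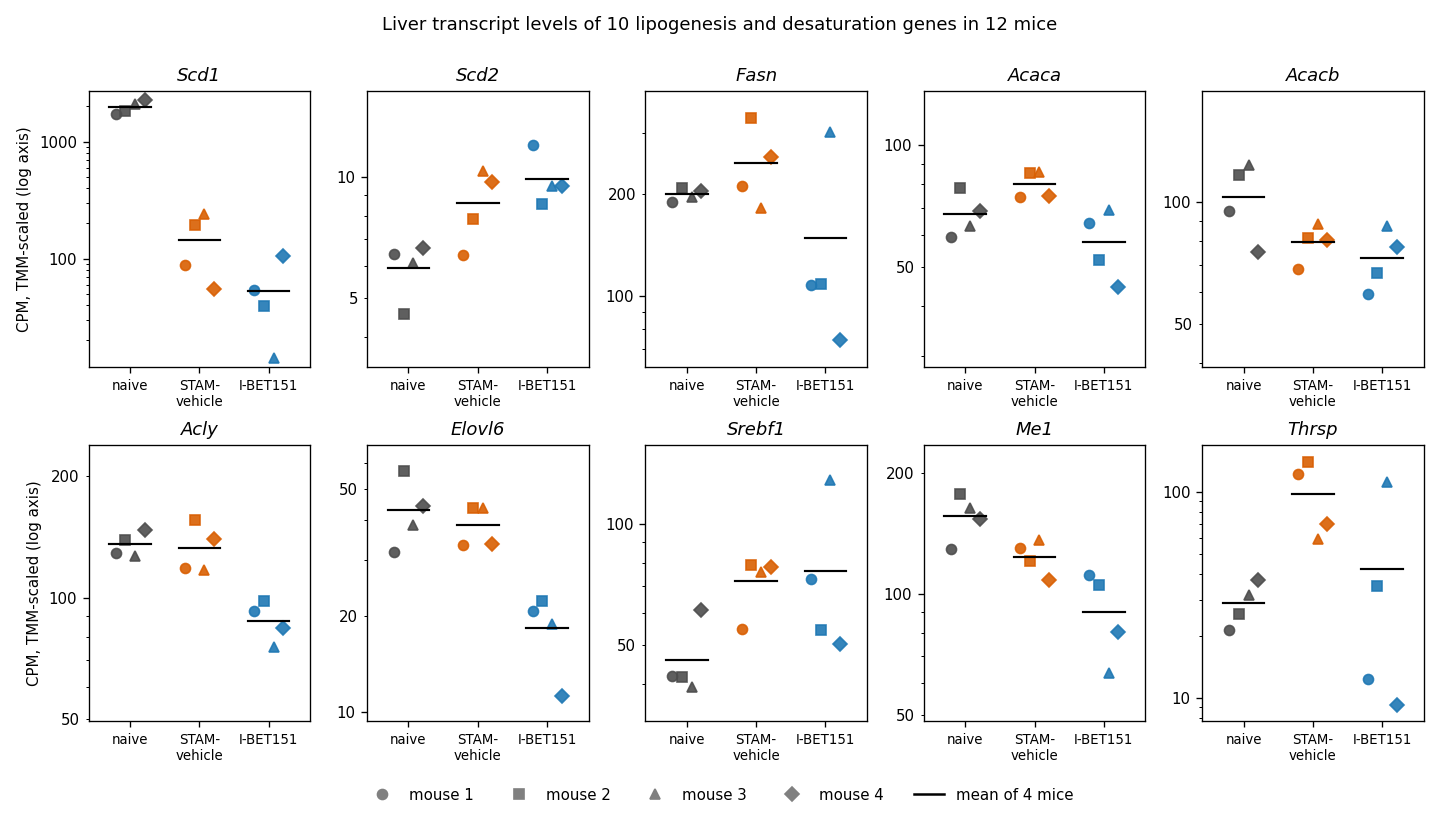
Level of each of the 10 genes in each liver, as TMM-scaled CPM on a log axis, with the 3 groups side by side, 1 symbol per mouse and a bar at the mean of 4 mice. Scd1 in naive livers sits between 1735 and 2255 CPM, above all 8 STAM livers, while the triangle of I-BET151 mouse 3 is the highest of its group in Fasn, Srebf1 and Thrsp and the lowest in Scd1.

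STAM-vehicle and naive livers were compared to show how the model itself changes the pathway. Of the 10 genes only Scd1 passed an adjusted p of 0.05, and it was lower in STAM-vehicle. The background is that 7.10% of the 16823 tested genes passed, 5.72% higher and 1.38% lower. By sign, 5 of the 10 genes were higher and 5 lower, with a median log2 fold change of 0.11 against 0.01 over all tested genes. The summed level of the 10 genes was 2769 ± 265 CPM in naive and 1024 ± 159 in STAM-vehicle livers. Without Scd1 the other 9 genes summed to 784 ± 59.5 and 879 ± 115 CPM, and the ranges of the 2 groups, 704 to 848 and 797 to 1047, overlapped. Of the 9 hepatocyte markers 8 were lower in STAM-vehicle by sign (median -0.44 on the log2 scale), and their part in the fall of Scd1 was not tested. Of 7 Kupffer cell and macrophage markers 4 passed, and of 6 T cell markers 2, all of them higher in STAM-vehicle. Without I-BET151 mouse 3, which is in neither group but in the shared fit, 3 of the 10 passed, Scd1 lower and Thrsp and Srebf1 higher, while 22.3% of all genes tested in that fit passed.

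I-BET151 and STAM-vehicle livers were compared to show what differs in diseased liver after dosing with the compound. Per the study's methods, I-BET151 was suspended in hydroxypropyl methylcellulose with Tween, while the vehicle control was methylcellulose. Compound and suspension therefore cannot be told apart, here or against naive livers. Elovl6 was the only one of the 10 genes to pass the adjusted p of 0.1 used for this comparison, and it fell. Over all tested genes 0.351% passed, 0.0951% higher and 0.256% lower. By sign, 8 of the 10 genes were lower and 2 higher, with a median log2 fold change of -0.54 against 0.02 over all tested genes. Every I-BET151 liver was below every STAM-vehicle liver for Acaca, Acly and Elovl6, a separation found for 2.63% of all tested genes. Without I-BET151 mouse 3, 5 of the 10 genes passed, all of them lower, namely Fasn, Acaca, Acly, Elovl6 and Thrsp, while 2.38% of all genes tested in that fit passed. T cell markers moved with this comparison. All 6 were lower by sign (median -1.38 on the log2 scale), only Cd4 of them passed, a gene named after its value was seen, and their part was not tested. DESeq2, the tool of the study's methods, called 3 of the 10 with all mice in, Elovl6, Acly and Acaca, all lower. It called 0.907% of the 29554 genes with a p-value in its fit. No filter on low counts came before that fit, but DESeq2's own filter can leave genes without an adjusted p. Such genes count among the 29554 and could not be called. The share is therefore a lower bound and not over the same genes as the edgeR shares.

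I-BET151 livers were also set against naive livers. Scd1, Elovl6, Acly and Me1 fell and Scd2 rose at an adjusted p of 0.05, which 15.1% of all tested genes passed, 9.88% higher and 5.25% lower. The same 5 genes were called with 2 groups in the fit, 4 lower and 1 higher, beside 7.88% of all genes tested there, 2.05% lower. DESeq2 called 6 of the 10, 5 lower and 1 higher, and 11.6% of the 29554 genes in its fit. That share is again a lower bound and not over the same genes as the edgeR shares. With the sequencing lane as a factor none of the 5 calls remained, beside 0.505% of all genes called. All 5 kept their signs there, with log2 fold changes of -5.23 (Scd1), -1.14 (Elovl6), -0.56 (Acly), -0.66 (Me1) and 0.55 (Scd2). Terms for 6 lanes among 12 mice leave that fit little power, so a lost call in it cannot show a part of the lane. The median log2 fold change of the 10 genes was -0.46 against 0.06 over all tested genes. Of the 9 hepatocyte markers 7 were lower in I-BET151 by sign, with a median of -0.64, below that of the 10 genes. Their part in the falls of these genes was not tested. Without I-BET151 mouse 3, Fasn and Acacb passed as well, both lower, which made 7 of the 10 beside 20.4% of all genes. This comparison shares its mice with the other 2, so its calls are not independent of theirs.

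**Figure D2:**
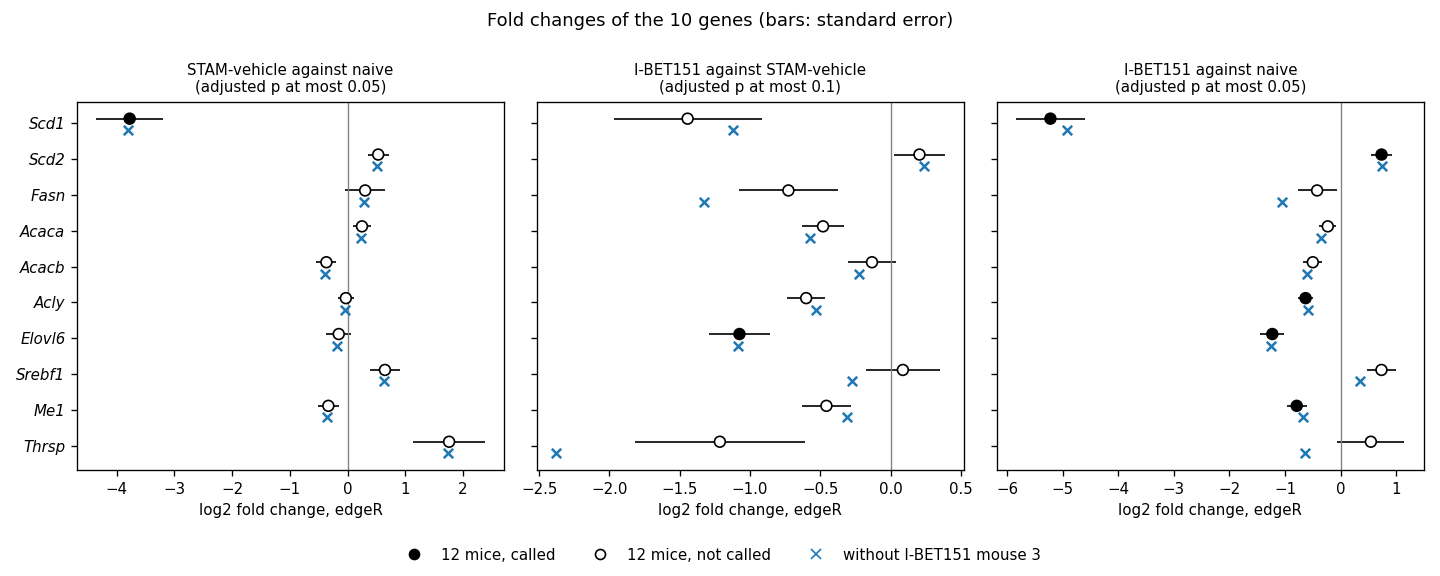
Log2 fold change of each gene in the 3 comparisons, from edgeR, as circles with bars of 1 standard error, filled where the gene passed the threshold printed above the panel. Crosses give the fold change without I-BET151 mouse 3, which moves Thrsp between I-BET151 and STAM-vehicle from -1.21 to -2.38 and Fasn from -0.73 to -1.33.

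Scd1 (ENSMUSG00000037071, chromosome 19 of GRCm38 from 44394455 to 44407879, minus strand) encodes the main stearoyl-CoA desaturase of liver. Its level was 1735, 1842, 2109 and 2255 CPM in naive mice 1 to 4, then 87.7, 195, 243 and 54.5 CPM in STAM-vehicle and 54.4, 39.6, 14.1 and 105 CPM in I-BET151 mice. All STAM livers were below all naive livers, and the 2 STAM groups overlapped. Scd1 fell 13.7-fold between naive and STAM-vehicle livers (log2 fold change -3.78, SE 0.58, edgeR adjusted p = 0.00200), the most negative log2 fold change of the 16823 tested genes. It fell 37.3-fold between naive and I-BET151 livers (log2 fold change -5.22, SE 0.62, edgeR adjusted p = 0.000302), which again had rank 1 among the tested genes. Both calls stood in each of the 12 fits that left out 1 mouse. Between I-BET151 and STAM-vehicle livers the log2 fold change was -1.44 (SE 0.53) and did not pass (edgeR adjusted p = 0.422). With the sequencing lane as a factor the differences from naive were -4.03 and -5.23 and neither passed (edgeR adjusted p = 0.360 and 0.0551). In lane 2, the only one with a naive and a STAM-vehicle liver, the difference in log2 CPM was -4.99, and in lanes 2 and 5, each with a naive and an I-BET151 liver, it was -4.05 and -5.83.

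Scd2 (ENSMUSG00000025203, chromosome 19 from 44293674 to 44306864, plus strand) is the neighbouring desaturase, known for its place in brain and in newborn tissues. It gave 6.45, 4.58, 6.10 and 6.67 CPM in naive, 6.42, 7.89, 10.3 and 9.74 CPM in STAM-vehicle and 12.02, 8.58, 9.52 and 9.51 CPM in I-BET151 mice. All I-BET151 livers were above all naive livers, and STAM-vehicle livers overlapped both. Scd2 rose by 0.74 on the log2 scale between naive and I-BET151 livers (SE 0.18, edgeR adjusted p = 0.0165), and the call was lost without naive mouse 2 (edgeR adjusted p = 0.0607) and with the lane as a factor (0.55, edgeR adjusted p = 0.497). Its log2 fold change between naive and STAM-vehicle livers was 0.53 (edgeR adjusted p = 0.0947). Of the 101-base windows of Scd1 transcripts, a window as long as a read, 2.54% also occur in another gene, and of those of Scd2 0.861% do.

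Because both genes are counted in the same library, their ratio does not depend on the size factor. The log2 ratio of Scd2 to Scd1 counts was -8.39 ± 0.24 in naive, -3.86 ± 0.99 in STAM-vehicle and -2.10 ± 1.18 in I-BET151 livers (SD, n = 4). Naive livers lay below all STAM livers. The ratio was higher by 4.53 in STAM-vehicle and by 6.28 in I-BET151 livers than in naive ones, each with p = 0.0286 in a two-sided exact permutation test, the smallest p that 4 against 4 mice can give, and 0.0515 after adjustment over the 9 ratio tests. Between the STAM groups the ratio differed by 1.75 and the groups overlapped (exact permutation p = 0.0571, adjusted 0.0857). The ratio of Scd1 to Fasn likewise went from 3.31 ± 0.16 on the log2 scale in naive to -0.96 ± 1.11 in STAM-vehicle and -1.59 ± 2.06 in I-BET151 livers. Its differences from naive were -4.28 and -4.90 (exact permutation p = 0.0286, adjusted 0.0515, for both). Scd1 is in both pairs, and earlier results of these data were known when the pairs were chosen. The differences from naive therefore restate the fall of Scd1 and are not separate support for it. Between the STAM groups it was -0.63 (exact permutation p = 0.629), and without I-BET151 mouse 3, in which the ratio was -4.42, it changed sign to 0.32.

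**Figure D3:**
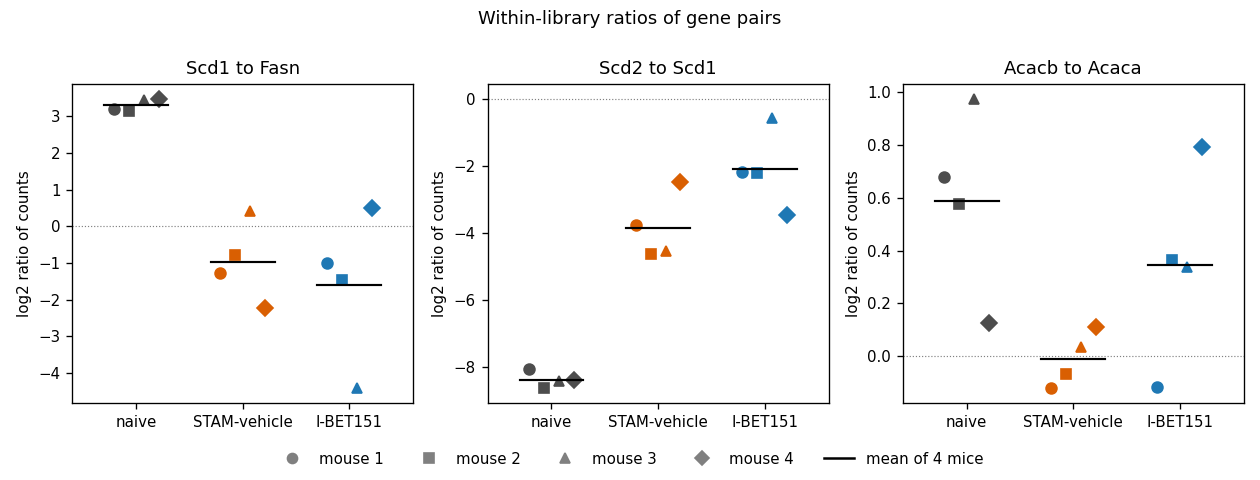
Log2 ratio of counts within each library for 3 pairs of genes, 1 symbol per mouse, with bars at the mean of 4 mice. The ratio of Scd1 to Fasn lies between 3.15 and 3.47 in naive livers and below 0.50 in all STAM livers, and that of Scd2 to Scd1 moves the other way.

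Acly (ENSMUSG00000020917, chromosome 11 from 100476353 to 100528000, minus strand), which makes cytosolic acetyl-CoA, stood at 129, 139, 127 and 147 CPM in naive, 118, 156, 117 and 140 CPM in STAM-vehicle and 92.7, 98.1, 75.6 and 83.9 CPM in I-BET151 mice. Naive and STAM-vehicle livers overlapped, and all I-BET151 livers were below both. Acly fell by 0.63 on the log2 scale between naive and I-BET151 livers (SE 0.14, edgeR adjusted p = 0.00952), in all 12 fits without 1 mouse but not with the lane as a factor (-0.56, edgeR adjusted p = 0.259). Against STAM-vehicle the log2 fold change was -0.60 (SE 0.14, edgeR adjusted p = 0.135). It passed the threshold without I-BET151 mouse 3 (edgeR adjusted p = 0.0581) and in DESeq2 (adjusted p = 0.00667).

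Acaca (ENSMUSG00000020532, chromosome 11 from 84129672 to 84401651, plus strand) encodes the cytosolic carboxylase that feeds fatty acid synthesis. Its values were 59.3, 78.5, 63.1 and 68.9 CPM in naive, 74.2, 85.6, 86.0 and 74.8 CPM in STAM-vehicle and 64.3, 51.8, 69.0 and 44.6 CPM in I-BET151 mice. I-BET151 livers were all below STAM-vehicle livers and overlapped naive ones. The log2 fold change against STAM-vehicle was -0.48 (SE 0.15, edgeR adjusted p = 0.325), and it passed without I-BET151 mouse 3 (-0.57, edgeR adjusted p = 0.0717) and in DESeq2 (adjusted p = 0.0988). Of its 101-base windows, 23.6% also occur in transcripts of other gene models, so its count is uncertain.

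Acacb (ENSMUSG00000042010, chromosome 5 from 114146535 to 114250761, plus strand) encodes the carboxylase at the mitochondrion, whose malonyl-CoA restrains fatty acid oxidation. It gave 94.9, 117, 124 and 75.2 CPM in naive, 68.2, 81.7, 88.1 and 80.6 CPM in STAM-vehicle and 59.3, 66.8, 87.3 and 77.4 CPM in I-BET151 mice, with overlap between all groups. No comparison passed by edgeR, the nearest being I-BET151 against naive (log2 fold change -0.50, SE 0.17, edgeR adjusted p = 0.0656), which passed without I-BET151 mouse 3 (edgeR adjusted p = 0.0205) or naive mouse 4 (edgeR adjusted p = 0.0400). With all mice in, DESeq2 called it (adjusted p = 0.02395). The log2 ratio of Acacb to Acaca was 0.59 ± 0.35 in naive, -0.01 ± 0.10 in STAM-vehicle and 0.35 ± 0.37 in I-BET151 livers. It was lower by 0.60 in STAM-vehicle than in naive livers with no overlap (exact permutation p = 0.0286, adjusted 0.0515). I-BET151 livers differed by 0.36 from STAM-vehicle (exact permutation p = 0.114) and by -0.24 from naive livers (exact permutation p = 0.400), and overlapped both.

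Fasn (ENSMUSG00000025153, chromosome 11 from 120805846 to 120824547, minus strand), the fatty acid synthase, passed no threshold with all mice in the fit. It stood at 189, 208, 195 and 203 CPM in naive, 211, 333, 181 and 257 CPM in STAM-vehicle and 108, 108, 302 and 74.4 CPM in I-BET151 mice. In the I-BET151 group 3 livers were below all naive and STAM-vehicle livers, and mouse 3 was above all naive ones. The log2 fold change was 0.30 between naive and STAM-vehicle (SE 0.35, edgeR adjusted p = 0.656), -0.73 between STAM-vehicle and I-BET151 (SE 0.35, edgeR adjusted p = 0.593) and -0.42 between naive and I-BET151 livers (SE 0.35, edgeR adjusted p = 0.420). Without I-BET151 mouse 3 the last 2 were -1.33 and -1.05 and both passed (edgeR adjusted p = 0.0108 and 0.00335).

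Thrsp (ENSMUSG00000035686, chromosome 7 from 97412938 to 97417730, minus strand), also called Spot 14, responds to thyroid hormone and carbohydrate and promotes lipogenesis. Its level was 21.4, 25.6, 31.5 and 37.2 CPM in naive, 123, 141, 58.8 and 69.5 CPM in STAM-vehicle and 12.3, 35.002, 112 and 9.19 CPM in I-BET151 mice. All STAM-vehicle livers were above all naive livers, while the I-BET151 group reached from below the naive range to the STAM-vehicle range. The log2 fold change between naive and STAM-vehicle was 1.76 (SE 0.62) and missed the threshold (edgeR adjusted p = 0.105), and it passed when only these 2 groups were fitted (edgeR adjusted p = 0.00270). In that fit 23.9% of all genes tested passed. Against STAM-vehicle the I-BET151 value was -1.21 (SE 0.61, edgeR adjusted p = 0.614), and without mouse 3 it was -2.38 and passed (edgeR adjusted p = 0.0317). Between naive and I-BET151 livers it was 0.54 (edgeR adjusted p = 0.556) and changed sign to -0.64 without mouse 3.

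Fasn and Thrsp were the pair that varied most alike within groups over all 12 mice, and the bases before their transcription starts are shown for that reason. The Pearson r of the deviations of Fasn and Thrsp from the group means was 0.87 over 12 mice and 0.71 without I-BET151 mouse 3, a description over libraries that share their depth and size factors. The rank rests on I-BET151 mouse 3, without which Acaca with Elovl6 (r = 0.85) and Elovl6 with Me1 (r = 0.75) were higher. The sequences are from RefSeq on GRCm38.p6, 250 bases 5′ to 3′ up to the start, chr11:120824548-120824797 on the minus strand for Fasn and chr7:97417551-97417800 on the minus strand for Thrsp, and capitals mark each CCAAT box on either strand.
Fasn: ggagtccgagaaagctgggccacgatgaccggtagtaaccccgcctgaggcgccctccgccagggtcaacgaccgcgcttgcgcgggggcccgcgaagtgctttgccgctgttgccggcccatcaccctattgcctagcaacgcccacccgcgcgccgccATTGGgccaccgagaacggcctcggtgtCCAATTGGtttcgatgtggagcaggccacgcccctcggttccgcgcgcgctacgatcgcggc
Thrsp: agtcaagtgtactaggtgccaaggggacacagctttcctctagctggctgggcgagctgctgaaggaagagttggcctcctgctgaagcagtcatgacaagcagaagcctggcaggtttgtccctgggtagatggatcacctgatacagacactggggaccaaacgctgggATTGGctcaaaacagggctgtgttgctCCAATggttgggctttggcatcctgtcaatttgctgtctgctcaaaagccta
In Fasn the CCAAT boxes begin at -90, -62 and -59 from the start, the last 2 overlapping on opposite strands, and in Thrsp at -79 and -52. Windows from 250 bases before to 50 after the start were matched for 8 of the 10 genes, all but Scd1 and Scd2, and gave 11 start sites. A CCAAT box was in 7 of these windows and 6 genes, against 37.4% of 32851 mouse promoter windows. The GC box, GGGCGG, was in 4 windows and 3 genes, Acly, Srebf1 and Me1, against 35.7%. Neither the E-box, CACGTG, held by 7.15% of all windows, nor the sterol element core, TCACNCCAC, held by 1.24%, was in any of the 11, which says only that these letters are not in these windows.

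Elovl6 (ENSMUSG00000041220, chromosome 3 from 129532355 to 129638495, plus strand), the elongase of palmitate, gave 31.8, 56.9, 38.5 and 44.1 CPM in naive, 33.3, 43.6, 43.5 and 33.4 CPM in STAM-vehicle and 20.7, 22.3, 18.9 and 11.2 CPM in I-BET151 mice. All I-BET151 livers were below all others, and naive and STAM-vehicle livers overlapped. It fell 2.11-fold against STAM-vehicle (log2 fold change -1.07, SE 0.22, edgeR adjusted p = 0.0768) and 2.34-fold against naive livers (-1.23, SE 0.22, edgeR adjusted p = 0.00331). I-BET151 mouse 3 lay within the range of the other 3. The call against naive stood in all 12 fits without 1 mouse. That against STAM-vehicle stood in 4 of 12, with adjusted p from 0.0579 to 0.284, and was lost without naive mouse 3 or 4, any STAM-vehicle mouse, or I-BET151 mouse 1 or 4. DESeq2 gave an adjusted p of 0.00132, edgeR with the 2 groups alone 0.210. With the lane as a factor neither call remained (edgeR adjusted p = 0.0985 against naive and 0.194 against STAM-vehicle). Within lanes 2, 6 and 7, which each hold 1 liver of both STAM groups, the differences in log2 CPM, I-BET151 minus STAM-vehicle, were -1.57, -0.69 and -1.20. The 250 bases before its RefSeq start, chr3:129532136-129532385 on the plus strand, are shown as those of the only gene called after I-BET151, and hold none of the 4 motifs, hence no capitals.
Elovl6: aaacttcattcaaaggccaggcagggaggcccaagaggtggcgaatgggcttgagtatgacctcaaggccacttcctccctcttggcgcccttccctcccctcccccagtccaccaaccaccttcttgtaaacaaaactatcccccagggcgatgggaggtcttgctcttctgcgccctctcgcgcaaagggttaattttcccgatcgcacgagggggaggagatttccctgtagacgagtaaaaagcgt

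Me1 (ENSMUSG00000032418, chromosome 9 from 86581371 to 86695953, minus strand) encodes the cytosolic malic enzyme, a source of NADPH. Its values were 130, 177, 164 and 154 CPM in naive, 130, 120, 136 and 109 CPM in STAM-vehicle and 111, 105, 63.9 and 80.4 CPM in I-BET151 mice. I-BET151 livers were below all naive livers, and STAM-vehicle livers overlapped both. Me1 fell by 0.79 on the log2 scale between naive and I-BET151 livers (SE 0.18, edgeR adjusted p = 0.0111), in all 12 fits without 1 mouse but not with the lane as a factor (-0.66, edgeR adjusted p = 0.281). The other log2 fold changes were -0.33 between naive and STAM-vehicle (edgeR adjusted p = 0.293) and -0.46 between STAM-vehicle and I-BET151 (edgeR adjusted p = 0.465). With only naive and STAM-vehicle livers in the fit Me1 passed, lower (edgeR adjusted p = 0.0470), beside 23.9% of all genes tested there. Of its 101-base windows 12.2% also occur in other gene models.

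Srebf1 (ENSMUSG00000020538, chromosome 11 from 60199089 to 60222581, minus strand) encodes SREBP-1a and SREBP-1c, which gene counts cannot tell apart. It stood at 41.9, 41.7, 39.4 and 61.0 CPM in naive, 54.9, 79.2, 76.1 and 77.9 CPM in STAM-vehicle and 72.7, 54.6, 128 and 50.4 CPM in I-BET151 mice. Naive mouse 4 lay within the STAM-vehicle range, and I-BET151 mouse 3 was the highest of all 12. The log2 fold change was 0.65 between naive and STAM-vehicle (SE 0.26, edgeR adjusted p = 0.162) and passed without I-BET151 mouse 3, which is in neither group (edgeR adjusted p = 0.0203). With only naive and STAM-vehicle livers in the fit Srebf1 passed too (edgeR adjusted p = 0.0191), beside 23.9% of all genes tested there. Against naive the I-BET151 value was 0.73 (edgeR adjusted p = 0.0738). It passed without I-BET151 mouse 2 or 4 (edgeR adjusted p = 0.0382 and 0.0465), and was 0.35 without mouse 3. Between the STAM groups it was 0.09 (edgeR adjusted p = 0.967) and changed sign to -0.27 without I-BET151 mouse 3 and to -0.03 without STAM-vehicle mouse 1. Rai1 lies on the other strand and shares 109 exonic bases with Srebf1. Whether the counting used strand is not given in the sources used here.

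I-BET151 mouse 3 had some of the 10 genes highest and some lowest in its group. Within its group it had the highest level of Fasn, Acaca, Acacb, Srebf1 and Thrsp and the lowest of Scd1, Acly and Me1, and it lay within the other 3 for Scd2 and Elovl6. Of all tested genes, 42.3% were higher in that liver than in the other 3, a share near 5 of 10, so that count is not particular to these genes. The share of all genes lowest in that liver was not computed. Over the 45 pairs of the 10 genes, the median r of deviations from the group means was 0.04 (0.09 without that mouse), with 25 pairs above 0. The highest after Fasn and Thrsp were Fasn with Srebf1 at 0.81 (0.57 without that mouse) and Acaca with Elovl6 at 0.78 (0.85). Scd1 with Fasn was the lowest at -0.70 (-0.46).

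**Figure D4:**
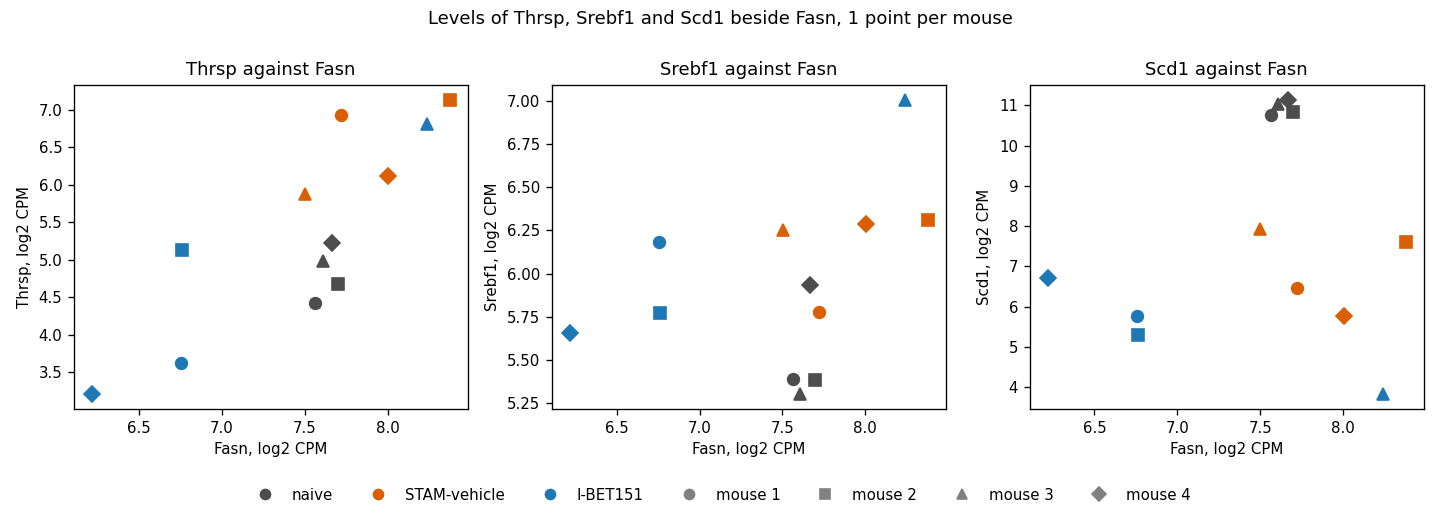
Level of Thrsp, Srebf1 and Scd1 against that of Fasn in log2 CPM, 1 point per liver, coloured by group and shaped by mouse number. Within the I-BET151 group Thrsp runs from 3.21 to 6.81 as Fasn runs from 6.22 to 8.24, while Scd1 is lowest, at 3.83, in the mouse with the highest Fasn.

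The neighbouring steps of the pathway were described with 62 other genes in 6 lists, of which 61 were tested. Between naive and STAM-vehicle livers 6 rose and 4 fell, between STAM-vehicle and I-BET151 0 passed by edgeR, 9 had an unadjusted p under 0.05 and 2 passed by DESeq2 (Fads1 and Mid1ip1, both lower), and between naive and I-BET151 livers 5 rose and 15 fell. The shares called over all tested genes were 7.10%, 0.351% and 15.1%. Median log2 fold changes of the 61 were -0.12, -0.12 and -0.22, against 0.01, 0.02 and 0.06 over all tested genes. Without I-BET151 mouse 3 the genes called in the 3 comparisons numbered 24, 5 and 24, of which 15, 4 and 18 were lower. The shares called over all genes tested in that fit were 22.3%, 2.38% and 20.4%.

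Of 8 desaturation genes beyond the 10, 2 fell in STAM-vehicle and 4 in I-BET151 livers against naive, and none rose. Scd3 (log2 fold change -2.44 in STAM-vehicle and -3.04 in I-BET151) and Scd4 (-2.44 and -2.89) are the other stearoyl-CoA desaturases, with naive levels of only 1.38 ± 0.563 and 0.928 ± 0.240 CPM. They are the 2 genes called in STAM-vehicle. Scd3 was at 0.248 ± 0.112 CPM in STAM-vehicle and 0.165 ± 0.119 in I-BET151 livers, Scd4 at 0.166 ± 0.0819 and 0.121 ± 0.0616. These levels are near the floor, so these genes passed the filter on low counts mainly through naive livers, where they are high. Of the 101-base windows of Scd3, 2.47% also occur in Scd1, and of those of Scd4 0.436% do. Fads1, the delta-5 desaturase of polyunsaturated fatty acids, was 322 ± 36.8 CPM in naive, 221 ± 27.2 in STAM-vehicle and 142 ± 24.7 in I-BET151 livers, and fell between naive and I-BET151 (log2 fold change -1.18, edgeR adjusted p = 0.000833). Fads2, the delta-6 desaturase, fell in that comparison too (-0.94, edgeR adjusted p = 0.0325), a call lost without naive mouse 2, 3 or 4 or I-BET151 mouse 1 or 4 (adjusted p up to 0.109).

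Among 11 tested elongation genes, 3 rose and 2 fell in STAM-vehicle and 2 rose and 5 fell in I-BET151 livers against naive. Elovl5 and Elovl2, elongases of polyunsaturated chains, fell in both, Elovl5 from 808 ± 106 CPM in naive to 360 ± 81.2 in STAM-vehicle and 279 ± 83.1 in I-BET151 livers (edgeR adjusted p = 0.0132 and 0.00200) and Elovl2 from 802 ± 200 to 368 ± 66.4 and 347 ± 143 (edgeR adjusted p = 0.0356 and 0.0160). The Elovl2 call in STAM-vehicle was lost without naive mouse 2, 3 or 4 or any STAM-vehicle mouse (adjusted p up to 0.119), and that in I-BET151 livers without naive mouse 2 (0.0590). Elovl3 fell in I-BET151 livers against naive (log2 fold change -2.38, edgeR adjusted p = 0.0148, and 0.0526 without naive mouse 3). Elovl7 rose from 0.768 ± 0.167 CPM to 2.76 ± 1.15 and 2.81 ± 0.832 (edgeR adjusted p = 0.00475 and 0.00307). Hacd4, a dehydratase of the elongation cycle, rose in STAM-vehicle (0.95, edgeR adjusted p = 0.0452), a call lost without any naive mouse, STAM-vehicle mouse 2, 3 or 4 or I-BET151 mouse 4 (adjusted p up to 0.139).

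Of 8 genes that supply acetyl-CoA and NADPH, Pgd of the pentose phosphate pathway rose in both STAM groups against naive, from 28.1 ± 1.42 CPM to 49.99 ± 4.38 and 44.6 ± 3.48 (edgeR adjusted p = 0.000686 and 0.00181). The acetyl-CoA synthetase Acss2 (log2 fold change -0.62, edgeR adjusted p = 0.0161) and the citrate carrier Slc25a1 (-0.55, edgeR adjusted p = 0.0326) fell in I-BET151 livers against naive. The Acss2 call was lost without naive mouse 3 or 4 (adjusted p up to 0.0535) and the Slc25a1 call without any naive mouse or I-BET151 mouse 1 or 4 (up to 0.0869). Of 11 genes of triglyceride assembly, the monoacylglycerol acyltransferases Mogat1 and Mogat2 rose in both STAM groups, Mogat1 from 0.753 ± 0.221 CPM to 4.11 ± 1.17 and 3.02 ± 1.10 and Mogat2 from 0.296 ± 0.179 to 1.39 ± 0.391 and 2.01 ± 0.699 (edgeR adjusted p from 0.000653 to 0.00835). Gpam and Gpat4, which start glycerolipid synthesis, fell between naive and I-BET151 livers (-0.68 and -0.71, edgeR adjusted p = 0.00867 and 0.0251), the Gpat4 call being lost without naive mouse 2, 3 or 4 or I-BET151 mouse 1 (adjusted p up to 0.0735). Of 14 control genes, Insig1, which retains SREBP in the endoplasmic reticulum and is itself an SREBP target, fell from 111 ± 11.5 CPM in naive to 58.9 ± 24.7 in I-BET151 livers (-0.92, edgeR adjusted p = 0.0278), a call lost without naive mouse 2, 3 or 4 or I-BET151 mouse 1 or 4 (adjusted p up to 0.0756). Of 9 genes of sugar entry 0 passed by edgeR in the 3 comparisons, while 2, 2 and 5 had an unadjusted p under 0.05 and DESeq2 called 1, 0 and 3.

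**Figure D5:**
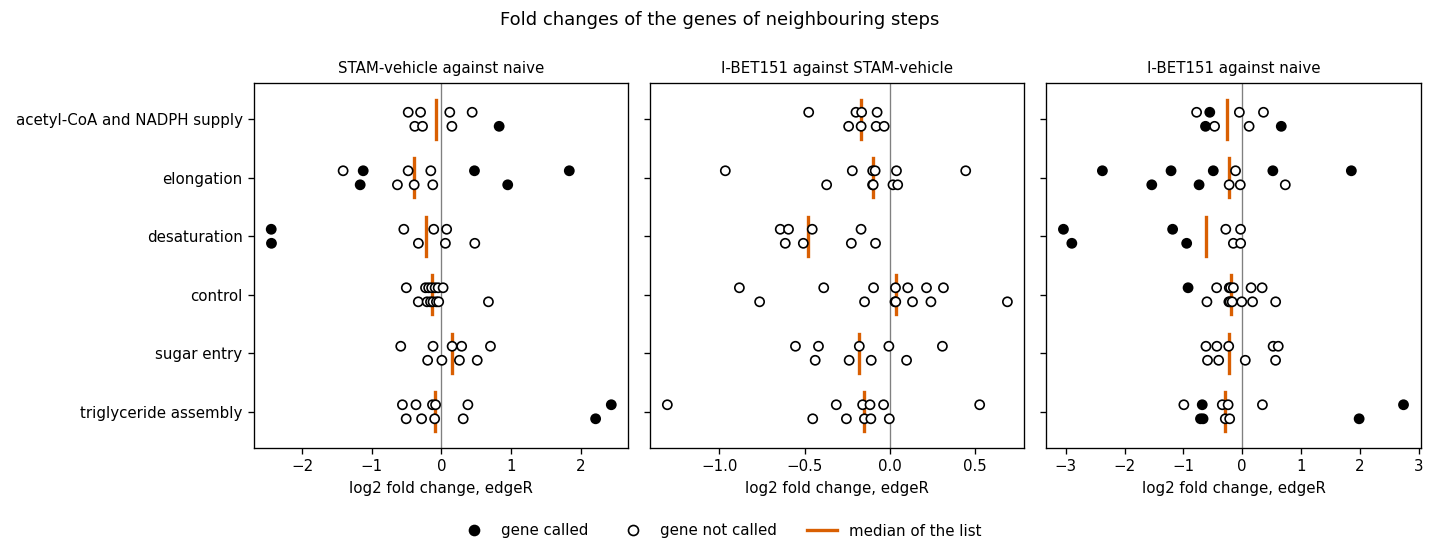
Log2 fold change of each tested gene of 6 neighbouring steps in the 3 comparisons, filled where it passed the threshold, with a bar at the median of each list. Against naive, desaturation genes have the lowest median of the 6 lists in I-BET151 livers, at -0.61, and elongation genes in STAM-vehicle livers, at -0.39, where that of desaturation genes is -0.22.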

How the data were processed

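Liver RNA of 12 mice was sequenced as 101-base paired reads from stranded mRNA libraries. Per the labels and the study's methods, the authors aligned reads to mm10 with STAR 2.5.1b, kept uniquely mapped reads and counted them per gene with HTSeq. The names of the deposited tables point to featureCounts instead. The annotation release is not given in the sources used here. The deposited values are whole-number counts per gene and mouse, not normalized, and groups came from the sample titles. Of 47729 gene IDs, 47224 matched GENCODE M21 on GRCm38, which gave symbols and positions.

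Counts were scaled by TMM and filtered by filterByExpr (minimum count 10), and all 12 mice entered a single fit of edgeR 4.0.16 (R 4.3.3, limma 3.58.1) with the quasi-likelihood test and Benjamini-Hochberg adjustment over 16823 genes. Thresholds were adjusted p of 0.05, 0.1 for I-BET151 against STAM-vehicle. SE is the log2 fold change over the root of F. Ratios used counts plus 0.5. SciPy 1.17.1 gave the exact permutation tests, run under Python 3.11.15 with tables in pandas 2.3.3 and figures in Matplotlib 3.10.9. The fit was tested on simulated data. The members, lists and tests were chosen with earlier results of these data known. Named genes outside the 10 are at most the 4 largest calls per list and comparison, and the 5 genes most like a pattern. The study left out 1 treated mouse it does not name, so all were kept and each left out in turn. No replicate pair agreed within sampling noise (chi-square of at least 38.6 per degree of freedom). Alternatives were RLE scaling, other filters, DESeq2 1.42.0, 2-group fits, the replicate number as a block, the lane as a factor and the other threshold. One gene that the likeness ranking placed among its first 5 is not reported here.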

Additional observations from a re-analysis of the deposited data

Results flagged for a closer look

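Srebf1 had a mouse far from the others in 2 groups. In naive livers mouse 4 was at a log2 CPM of 5.93 and the other 3 between 5.30 and 5.39, a gap of 0.859 of the group's range. In STAM-vehicle livers mouse 1 was at 5.78 and the other 3 between 6.25 and 6.31, a gap of 0.891 of the range. Both gaps were above Dixon's 95% critical value for 4 samples. Of the 39 groups of values examined 2 were, and chance alone gives about 1 in 20.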

How the results depend on the processing

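Against 1195, 59 and 2546 genes called (STAM-vehicle against naive, I-BET151 against STAM-vehicle, I-BET151 against naive) and 1, 1 and 5 of the 10 genes, the other threshold (0.1, 0.05, 0.1) gave 2052, 26 and 4162 genes and, in the first 2 comparisons, 2 and 0 of the 10 (5 at an unadjusted p under 0.05). Without a low-count filter the middle comparison gave 101 genes, and 2 of the 10 passed in the first. DESeq2 gave 1892, 268 and 3425 genes, and 3 of the 10 in the middle comparison. Fits of 2 groups gave 3879, 8 and 1262 genes, or 23.9%, 0.048% and 7.88% of the genes tested in each. Of the 10, 4 and 0 passed in the first 2 comparisons (5 unadjusted in the second). The replicate number as a block gave 742, 10 and 1573 genes and 0 of the 10 in the middle comparison (7 unadjusted), where Elovl6 had an edgeR adjusted p of 0.122. Same-numbered mice did not deviate together (mean r of -0.07, -0.06 and -0.15), so the number does not pair them. Paired by number, the ratio differences from naive (-4.28, -4.90, 4.53, 6.28 and -0.60) reached only the smallest exact permutation p of 0.125. The lane as a factor gave 37, 0 (1485 unadjusted) and 85 genes and 0 of the 10 in all comparisons (1, 5 and 4 unadjusted). Leaving out 1 mouse gave 546 to 3779, 13 to 403 and 1292 to 3731 genes, and 1 to 3, 0 to 5 and 4 to 7 of the 10, the highest without I-BET151 mouse 3 except for 3731 genes without I-BET151 mouse 2. Ratio differences then ran, in the same order of comparisons, from -4.74 to -3.85, -1.32 to 0.32 and -5.60 to -3.96 (Scd1 to Fasn), 4.07 to 4.78, 1.24 to 2.21 and 5.77 to 6.73 (Scd2 to Scd1), and -0.75 to -0.47, 0.21 to 0.51 and -0.40 to -0.09 (Acacb to Acaca). The sign turned, for differences that no fit called, in Fasn (-0.080 with lane), Acly (0.016 with lane, and 0.017, 0.019 and 0.024 without naive mouse 4, STAM-vehicle mouse 1 or STAM-vehicle mouse 3, from a lowest of -0.12) and Elovl6 (0.0090 without naive mouse 2, from a lowest of -0.27) in STAM-vehicle against naive, Srebf1 between the STAM groups (-0.025 and -0.27 without STAM-vehicle mouse 1 or I-BET151 mouse 3, up to 0.24), Thrsp in I-BET151 against naive (-0.37 with lane, -0.64 without I-BET151 mouse 3, up to 0.87) and Scd1 to Fasn between the STAM groups (0.32 without I-BET151 mouse 3). The causes were not tested. RLE scaling and the filter of 10 counts in every mouse moved no count by over 1.5 times. Total counts limit precision, and gene counts cannot separate isoforms.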

Other observations

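Outside the 10 genes, Foxn2, Noct, Dusp6 and Pogk were among the 5 whose levels followed the members' mean standardised log2 CPM most closely over the 12 livers, with Pearson r from 0.93 to 0.90. Noct, a circadian gene also called nocturnin, was at 52.5 ± 17.1, 47.7 ± 13.1 and 17.1 ± 10.8 CPM, and Dusp6, a phosphatase of ERK, at 43.2 ± 11.9, 44.7 ± 12.6 and 19.8 ± 7.34 CPM. The r values describe the top of a ranking of all tested genes, over points that share libraries and size factors.

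The 5 genes most like Scd1 were Klhl13 (r = 0.97), Sgpl1 (0.96), Scd3 (0.96), Slco1a4 (0.95) and Gabbr2 (0.94). Scd3 was near the floor in STAM livers. Slco1a4, an organic anion transporter of liver, was at 197 ± 13.8 CPM in naive, 38.4 ± 6.39 in STAM-vehicle and 22.9 ± 10.1 in I-BET151 livers. Sgpl1, the sphingosine-1-phosphate lyase, moved over a narrower range, from 68.6 ± 4.20 to 53.5 ± 1.86 and 50.8 ± 3.68 CPM. Most of the spread behind these r values lies between naive and STAM livers.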
